A study of Mus musculus with 12 samples.

Results

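The miR-322 cluster is a row of 7 miRNA hairpins on the mouse X chromosome, running from Mir322 to Mir450b, and all 7 were among the 1123 miRNA hairpins and 2030 small RNA features measured in these oocytes. The members were taken by name. The names Mir322_seq, Mir503_seq, Mir351_seq, Mir542_seq and Mir450b_seq were found as 5 features, called here without the suffix, and the 2 loci of miR-450a were found as Mir450-1 and Mir450-2, which RefSeq pairs with mir-450a-1 and mir-450a-2. Small RNA was sequenced from mouse oocytes picked by hand out of ovaries that had received no hormone stimulation. The 12 libraries fall into 3 groups of 4. The wild type group had wild type ancestors, the Khdc3-null group lacked Khdc3, a maternal-effect gene of the subcortical maternal complex. The last group, called descendants, was wild type by genotype, with Khdc3-null grandfathers and wild type grandmothers. Age, strain, the null allele and the number of animals are not given in the labels, nor is it stated if each library is a different animal, so p-values measure the spread between libraries, which may be technical.

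As background, clustered hairpins are usually cut from a shared primary transcript by Drosha and Dicer, and each hairpin can give a mature miRNA from its 5′ arm (5p) and its 3′ arm (3p). The mature miRNA finds its targets mainly through the seed, bases 2 to 8, so miRNAs with the same seed share many targets. miR-322, called miR-424 in humans, and miR-503 belong to the extended miR-15/16 family, which represses cyclins and other genes of cell cycle entry, and in mouse they promote withdrawal from the cycle during muscle differentiation. miR-351 carries the seed of miR-125, whose worm relative is lin-4. miR-542-3p is known in human cells as a repressor of survivin, an inhibitor of cell death. In the mouse ovary, miRNA-guided repression is weak in the oocyte itself and active in the granulosa cells around it.

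The mature sequences are shown so that their seeds can be compared with each other and with those of hairpins elsewhere. They are 1 arm of each hairpin, those of RefSeq on GRCm38.p6, and the seed is in capitals.
miR-322-5p: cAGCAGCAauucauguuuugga
miR-503-5p: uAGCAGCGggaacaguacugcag
miR-351-5p: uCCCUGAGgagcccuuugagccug
miR-542-3p: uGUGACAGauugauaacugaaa
miR-450a-5p: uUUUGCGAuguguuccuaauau
miR-450b-5p: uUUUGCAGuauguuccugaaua
These 6 sequences carry 6 different seeds. On the other arm, miR-450a-1-3p of Mir450-1 and miR-450b-3p of Mir450b share the seed UUGGGAA, which miR-450a-2-3p of Mir450-2 does not carry. The mature miR-450a-5p is encoded by both Mir450-2 and Mir450-1, so a read of it cannot be assigned to either locus by its sequence. Position by position from the 5′ end, miR-450a-5p and miR-450b-5p are identical at 15 of 22 bases, miR-450a-1-3p and miR-450b-3p at 20 of 22, and miR-322-5p and miR-503-5p at 11 of 22. None of the members' other mature sequences lies within another of the 1005 hairpins listed in the RefSeq table. The deposited values are per hairpin and do not separate the arms.

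The hairpins lie on the minus strand of chromosome X between 53047997 and 53054349 (GRCm38, the assembly of mm10), a stretch of 6353 bases. In the order of transcription, Mir322 (53054255 to 53054349), Mir503 (53053984 to 53054054) and Mir351 (53053255 to 53053353) come first, inside the span of the long noncoding RNA gene C430049B03Rik (53053112 to 53057190 in RefSeq). GENCODE M21 gives that gene a shorter span, and in it none of the 7 hairpins lies inside another gene. After a gap of 3767 bases follow Mir542 (53049403 to 53049487), Mir450-2 (53048299 to 53048367), Mir450-1 (53048154 to 53048244) and Mir450b (53047997 to 53048078). These 4 lie in no other gene of either annotation. Gaps of 54 and 75 bases separate the miR-450 hairpins from each other.

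Mapped reads per library ranged from 2918620 to 7640554, of which 13.6% to 15.7% lay on miRNA hairpins. Levels are given in RPM, a feature's reads relative to the library's mapped reads, after the constant of 1 in the deposited table had been subtracted. The library Khdc3-null replicate 1 stood apart, with a median correlation of 0.930 with the other libraries, and the liver miRNA Mir122a stood at 1524 RPM in it and between 11.1 and 92.9 RPM in the other 11. Its effect on the members is given with the comparisons. The features are loci of small RNAs, so the level of the Khdc3 transcript and the mRNA markers of oocytes were not analysed here.

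The cluster was measured at every library's depth, with 85 reads in the lowest value of any member and 20015 in the highest. Mir322 was the most abundant member, at 2556 ± 409 RPM (SD, n = 12), and held rank 10 among all miRNA hairpins by mean level. Mir351 followed at 754 ± 97.8 RPM and rank 42. Levels then dropped to 144 ± 28.3 RPM for Mir542, 98.0 ± 19.3 RPM for Mir503, 68.8 ± 14.3 RPM for Mir450-1, 59.9 ± 11.4 RPM for Mir450-2 and 30.3 ± 10.9 RPM for Mir450b, which held rank 458. Mir322 exceeded Mir351 in all 12 libraries, Mir351 exceeded Mir542 in all 12, and Mir503 exceeded Mir450-1 in all 12. The neighbours Mir542 and Mir503 kept this order in 10 libraries, Mir450-1 and Mir450-2 in 11, and Mir450-2 and Mir450b in 11. Divided by hairpin length, the mean levels were 2691 RPM per 100 bases for Mir322, 762 for Mir351, 169 for Mir542, 138 for Mir503, 86.8 for Mir450-2, 75.6 for Mir450-1 and 37.0 for Mir450b, so only the miR-450a loci changed places. Ligation and amplification can favour some sequences, and such a bias was not tested, so the order is one of reads.

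**Figure D1:**
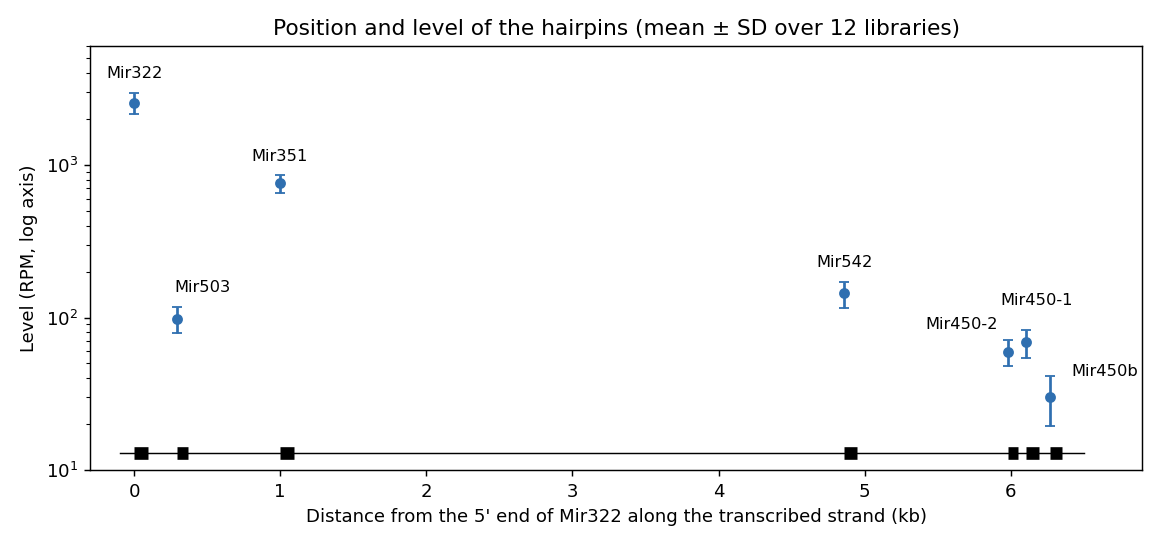
Level of each hairpin (RPM on a log axis, mean ± SD over 12 libraries) against its distance in kb from the 5′ end of Mir322 along the transcribed strand, with the hairpins drawn to scale as black boxes. Mir503, the hairpin next to Mir322, was read at 98.0 RPM against 2556 RPM, and the 4 hairpins after the long gap ranged from 30.3 to 144 RPM.

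Together the 7 hairpins held 2.53% ± 0.290 of all reads on miRNA hairpins (SD, n = 12). Within the cluster 68.7% ± 2.55 of the reads lay on Mir322 and 20.4% ± 2.05 on Mir351. Mir542 held 3.90% ± 0.770, Mir503 2.64% ± 0.426 and Mir450b 0.843% ± 0.374. The summed level was 3813 ± 586 RPM in wild type, 3911 ± 554 RPM in Khdc3-null and 3410 ± 318 RPM in descendant oocytes (SD, n = 4 each), and the libraries of the 3 groups overlapped, with ranges of 3192 to 4483, 3421 to 4563 and 3049 to 3820 RPM.

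Mir322, the leading member of the miR-15/16 type, stood at 2334, 2886, 3048 and 2144 RPM in the wild type libraries. In Khdc3-null oocytes it stood at 2402, 3280.0, 2924 and 2191 RPM, and in descendants at 2329, 2352, 2783 and 2001 RPM. The 3 groups overlapped, and the lowest library of each lay between 2001 and 2191 RPM. Mir503, whose seed differs from that of miR-322-5p in its last base, stood at 105, 106, 124 and 79.9 RPM in wild type, at 120.5, 110.3, 108 and 77.3 RPM in Khdc3-null and at 96.4, 104, 85.9 and 58.3 RPM in descendant oocytes. The library lowest in Mir503 was also the lowest in Mir322 in each group.

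Mir351, the member with the miR-125 seed, stood at 715, 763, 1017 and 666 RPM in wild type, at 691, 830.2, 767 and 801 RPM in Khdc3-null and at 715, 659.9, 694 and 734 RPM in descendant oocytes. Its descendant values were the closest to each other of any member and group except Mir450-1 in Khdc3-null oocytes, with a coefficient of variation of 4.51%. A wild type library at 1017 RPM was the highest. Mir542 stood at 174, 158, 145 and 140.4 RPM in wild type, at 97.6, 158, 184 and 171 RPM in Khdc3-null and at 136, 91.5, 134 and 134 RPM in descendant oocytes. The low Khdc3-null value belonged to replicate 1, and without it the mean rose from 153 ± 38.2 RPM (SD, n = 4) to 171 ± 13.0 RPM (SD, n = 3). All descendant values of Mir542 lay below all wild type values. Of all features tested, 2.75% did not overlap between these groups.

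The miR-450 hairpins were the scarcest members. Mir450-2 stood at 58.3, 77.9, 55.1 and 54.4 RPM in wild type, at 59.97, 72.3, 71.1 and 70.6 RPM in Khdc3-null and at 58.8, 51.6, 51.2 and 37.3 RPM in descendant oocytes. Mir450-1 stood at 61.6, 85.1, 68.2 and 59.7 RPM, at 79.7, 82.9, 83.1 and 76.4 RPM, and at 73.3, 61.9, 57.1 and 36.4 RPM in the same order. For both loci every descendant library lay below every Khdc3-null library, while the wild type libraries overlapped with both groups. Descendants and Khdc3-null oocytes did not overlap in 3.02% of all features tested. Because these loci share miR-450a-5p, their separation is not an observation of independent loci. Mir450b, which shares no mature sequence with them, stood at 28.2, 23.7, 24.9 and 47.6 RPM in wild type, at 32.1, 29.1, 42.4 and 33.0 RPM in Khdc3-null and at 21.3, 19.1, 14.3 and 47.9 RPM in descendant oocytes. The highest wild type and the highest descendant library were near 48 RPM, and without descendant replicate 4 the descendant mean fell from 25.6 ± 15.1 RPM to 18.2 ± 3.61 RPM (SD, n = 3).

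**Figure D2:**
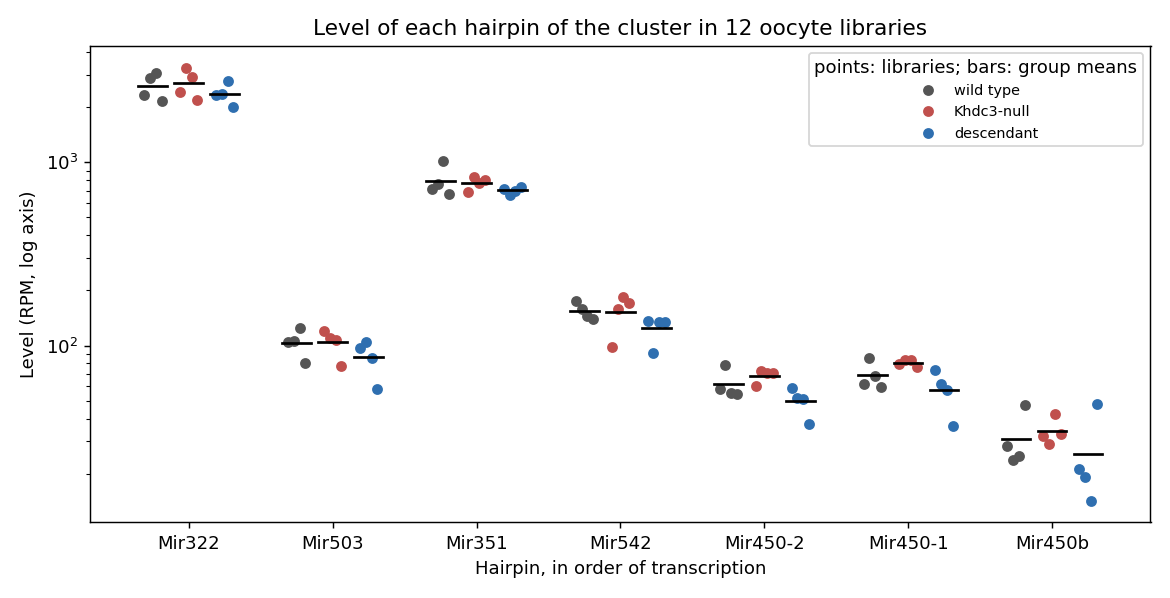
Level of each hairpin (RPM, log axis) in the 12 libraries, by group, with points for libraries and bars for group means. The groups overlapped for Mir322, Mir503, Mir351 and Mir450b, while descendants lay below all wild type libraries for Mir542 and below all Khdc3-null libraries for Mir450-2 and Mir450-1. Of all features tested, 2.75% did not overlap between descendants and wild type, and 3.02% between descendants and Khdc3-null oocytes.

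Losing Khdc3 left no detectable difference in the cluster. In limma's moderated test over 1889 small RNAs, 0 of the 7 members passed an adjusted p under 0.05, as did 0% of all features tested, and 0 passed an unadjusted p under 0.05, against 5.03% of all features (3.49% lower). No member's groups separated, against 3.18% of all features. The log2 differences of Khdc3-null from wild type oocytes ran from -0.05 for Mir542 to 0.24 for Mir450-1, with a median of 0.05 beside -0.05 over all features. 3 members and 59.3% of all features had a lower mean, and adjusted p ran from 0.990 to 1.00. Mir322 differed by 0.05 (95% confidence interval -0.27 to 0.37) and Mir351 by -0.02 (-0.29 to 0.25). All 7 intervals lay within a 2-fold rise and a 2-fold fall of RPM + 1, and the widest, that of Mir450b, reached from -0.56 to 0.91. Without Khdc3-null replicate 1 the difference of Mir542 turned from -0.05 to 0.15, that of Mir351 from -0.02 to 0.04, and that of Mir322 moved from 0.05 to 0.10. Mir322 turned to -0.04 without wild type replicate 4, and Mir503 ranged from -0.12 to 0.13 over the libraries left out. No direction is given for these 4 members. The values of Mir503, Mir351 and Mir542 are small enough that a shift common to all features, as between scalings, can turn the sign. Of the 7 members, 3 lay lower under scaling to mapped reads, 1 under scaling to miRNA reads and 0 under median-of-ratios scaling. Mir322 kept its sign between scalings and turned only when wild type replicate 4 or Khdc3-null replicate 2 was left out.

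Descendants had lower means than wild type oocytes for all 7 members, but none passed the threshold. The background was 54.1% of all features with a lower mean. The log2 differences ran from -0.36 to -0.13, with a median of -0.29 beside -0.02 over all features. Mir322 averaged 2366 ± 321 against 2603 ± 433 RPM, a difference of -0.13 with a confidence interval of -0.45 to 0.19. Mir542 averaged 124 ± 21.7 against 154 ± 15.0 RPM, a difference of -0.33 (-0.76 to 0.10, adjusted p = 0.946), and was the 1 member of 7 whose groups did not overlap, against 2.75% of all features. Without descendant replicate 2, which was low in Mir542, its difference was -0.19. Mir450b differed by -0.36 (-1.09 to 0.37), and by -0.14 when wild type replicate 4 or descendant replicate 3 was left out. Adjusted p ran from 0.946 to 0.952 in limma, and 0 of 7 passed an unadjusted p under 0.05, against 4.08% of all features (2.28% lower). Without descendant replicate 4 the difference of Mir450b moved to -0.70, with an unadjusted p of 0.0347 in limma, that of Mir503 to -0.11, that of Mir450-2 to -0.17, that of Mir450-1 to -0.09 and that of Mir322 to -0.05. Without wild type replicate 3 the difference of Mir351 moved from -0.15 to -0.03 and that of Mir322 to -0.05. Without wild type replicate 2 those of Mir450-2 and Mir450-1 moved to -0.18, and that of Mir322 to -0.08. Without wild type replicate 4 that of Mir322 moved to -0.22, and without descendant replicate 3 to -0.21. Since the hairpins may share a transcript and the libraries share their scaling, 7 lower means are not 7 separate observations.

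Descendants also had lower means than Khdc3-null oocytes for all 7 members, with 43.2% of all features lower. This comparison uses the same descendant libraries as the last, so the values are set side by side and not counted as a second observation. The log2 differences ran from -0.53 to -0.14, with a median of -0.28 beside 0.05 over all features. Mir450-1 averaged 57.2 ± 15.4 RPM against 80.5 ± 3.19 RPM, a difference of -0.53 (-0.98 to -0.08) with an unadjusted p of 0.0248 and an adjusted p of 0.722 in limma. Mir450-2 averaged 49.7 ± 8.99 against 68.5 ± 5.73 RPM, a difference of -0.47 (-0.88 to -0.05) with an unadjusted p of 0.0295 and an adjusted p of 0.722 in limma. These 2 were the members past an unadjusted p under 0.05, against 6.41% of all features (2.75% lower), and the members whose groups did not overlap, against 3.02%. Mir322 differed by -0.18 (-0.50 to 0.14) and Mir351 by -0.14 (-0.41 to 0.13). Without Khdc3-null replicate 1 the difference of Mir542 moved from -0.28 to -0.48, with an adjusted p of 0.544 in limma. It was -0.14 without descendant replicate 2 and -0.17 without Khdc3-null replicate 3. The difference of Mir322 was -0.08 without Khdc3-null replicate 2 and -0.28 without Khdc3-null replicate 4, and that of Mir450b was -0.31 without descendant replicate 3. Without Khdc3-null replicate 2, 3 or 4, Mir450-2 did not pass an unadjusted p under 0.05. Without descendant replicate 4 the difference of Mir450-1 was -0.33 and that of Mir450-2 -0.34, neither past an unadjusted p under 0.05, that of Mir322 -0.10, that of Mir503 -0.11 and that of Mir450b -0.87 (unadjusted p = 0.0113 in limma).

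**Figure D3:**
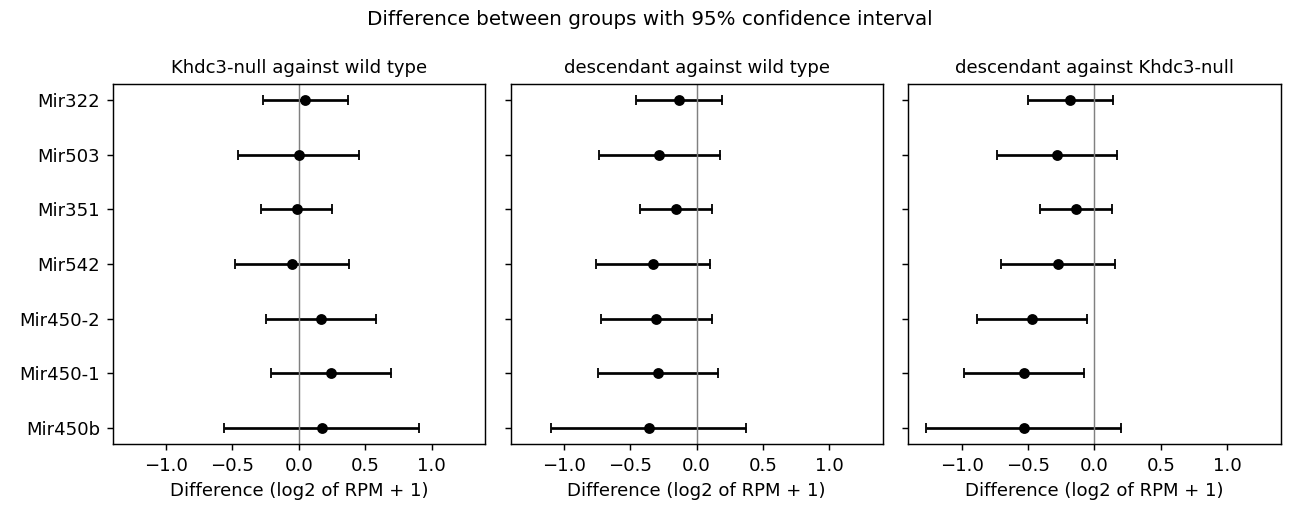
Difference of each hairpin between groups on the log2(RPM + 1) scale, as the estimate and 95% confidence interval of the limma fit over all 12 libraries. All 7 estimates lay below 0 in both comparisons of descendants, and the intervals of Mir450-2 and Mir450-1 against Khdc3-null oocytes were the 2 that did not reach 0.

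The libraries of the 3 groups overlapped in the proportion of every member to Mir322. Mir351 was read at 30.4% ± 2.90 of the level of Mir322 in wild type, 29.2% ± 5.10 in Khdc3-null and 30.1% ± 4.97 in descendant oocytes (SD, n = 4). Mir503 was read at 4.00% ± 0.382, 3.90% ± 0.756 and 3.64% ± 0.755 of it, and Mir450-1 at 2.65% ± 0.304, 3.04% ± 0.438 and 2.41% ± 0.598. Mir542 stood at 6.06% ± 1.19, 5.74% ± 1.66 and 5.31% ± 1.22, and Mir450-2 at 2.39% ± 0.395, 2.59% ± 0.440 and 2.10% ± 0.322. Mir450b varied most for its level, at 1.27% ± 0.661, 1.30% ± 0.281 and 1.16% ± 0.840, and between 0.513% and 2.39% in single libraries. None of 18 exact two-sided permutation tests of the log2 ratio to Mir322 passed, with a lowest exact p of 0.143, for Mir450-1 between descendants and Khdc3-null, and adjusted p between 0.836 and 0.886. The smallest p that these exact tests of 4 against 4 libraries can give is 0.0286, which could not pass alone after adjustment, so the tests do not show equal ratios.

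Within groups the members did not all move together. Counting error alone would give Mir322 a coefficient of variation of 0.822% between wild type libraries, and 16.6% was measured. For Mir450-1 in Khdc3-null oocytes the measured 3.96% was below the 5.27% of counting error. After the group means were removed, Mir450-2 and Mir450-1 had a Pearson r of 0.90 over the 12 libraries, Mir322 and Mir503 one of 0.63, and Mir322 and Mir351 one of 0.51. Mir450b ran against most of the others, with r of -0.63 with Mir322, -0.70 with Mir503, -0.64 with Mir450-2 and -0.72 with Mir450-1. Its correlation was negative with 5 of the 6 members. Without removal of the group means the same r were weaker, at -0.36, -0.37, -0.08 and -0.18, with Spearman's rho of -0.37, -0.22, 0.06 and -0.02, and 4 of the 6 were negative. In descendant replicate 4, Mir450b stood at 1.32 times the level of Mir450-1, and in descendant replicate 3 at 0.25 times. Mir450b lay furthest above its group mean in descendant replicate 4, by a log2 difference of 1.02, and in wild type replicate 4, by 0.65. No library was left out for the correlations, so how far they rest on these libraries was not tested. These correlations describe libraries that share depth and scaling, and the values of Mir450b rest on 85 to 343 reads per library.

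**Figure D4:**
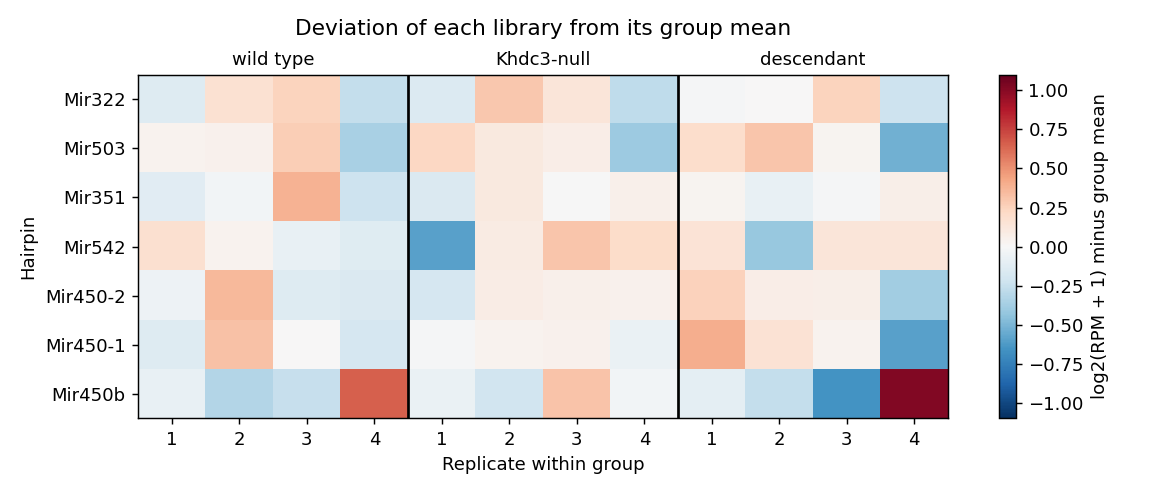
Deviation of each hairpin from its group mean (log2 of RPM + 1) in each library, with hairpins in order of transcription as rows and libraries as columns. Mir450b was above its group mean in wild type replicate 4 and descendant replicate 4, the libraries in which Mir322, Mir503, Mir450-2 and Mir450-1 were each the lowest of their group. In Khdc3-null replicate 3, Mir450b and those 4 hairpins were all above their group means, by 0.32 for Mir450b and 0.13 for Mir322.

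Hairpins outside the cluster that carry its seeds spanned levels from below 1 RPM to that of Mir322. The seed AGCAGCA of miR-322-5p occurs in 10 other hairpins of the RefSeq table, all of them measured, and the seed CCCUGAG of miR-351-5p in 5. Mature sequences of some of them are shown. Position by position, miR-322-5p and miR-16-5p were identical at 12 of 22 bases and miR-351-5p and miR-125b-5p at 10 of 22. No other relative outside the cluster was compared in this way, and some may be closer.
miR-16-5p: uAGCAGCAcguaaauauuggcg
miR-195a-5p: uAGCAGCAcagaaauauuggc
miR-125b-5p: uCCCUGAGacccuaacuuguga
Mir322 held 29.2% ± 4.12 (SD, n = 12) of the summed RPM of the hairpins with its seed, and Mir351 held 34.1% ± 4.46 of those with its own. Mir16-1 and Mir16-2 give the same miR-16-5p and stood at 2428 and 2465 RPM. If its reads were counted at both loci, the share of Mir322 is too low. Mir125b-1 and Mir125b-2 give the same miR-125b-5p, and the same holds there for the share of Mir351. How reads with several loci were counted is not given in the sources used here.

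A list of relatives of Mir322 and Mir503 in the miR-15/16 family had 10 measured members. None of the 10 passed in any comparison, with 5 lower and 5 higher in descendants than in wild type oocytes and a median log2 difference of -0.01. Mir195a averaged 260.2 ± 64.3 RPM in descendants, against 447 ± 88.6 in wild type and 368 ± 25.6 in Khdc3-null oocytes, a difference of -0.79 from wild type with an adjusted p of 0.813 in limma. Mir15b averaged 828 ± 235 RPM in descendants against 701 ± 90.2 RPM in wild type, and Mir15a 20.7 ± 7.90 against 25.5 ± 5.96 RPM. Mir195b averaged 73.4 RPM in descendants against 95.8 RPM in wild type. Mir497 averaged 35.9 against 33.4 RPM and its antisense neighbour Mir497b 106 against 55.0 RPM. Strand-specific counting is not stated, so these 2 cannot be told apart with certainty. Mir1907 averaged 221 against 201 RPM and Mir6342 15.9 against 6.67 RPM. Mir497b and Mir1907 are on this list but not among the 10 hairpins found by their AGCAGCA seed. That search added Mir6353, at 20.2 ± 6.36 RPM in wild type and 10.3 ± 4.92 in descendants, and Mir6419, at 48.8 ± 10.7 and 53.0 ± 7.58 RPM. The 3 listed relatives of Mir351 had lower means in descendants than in wild type oocytes, with a median log2 difference of -0.44, and none passed after adjustment. Mir125a averaged 536 ± 101 against 763 ± 88.5 RPM, Mir125b-1 averaged 359 ± 52.9 against 465 ± 59.8 RPM, and Mir125b-2 averaged 299.7 ± 81.5 against 399 ± 59.6 RPM. The 2 other hairpins with the seed of miR-351-5p were not lower beyond their spread, with Mir6394 at 33.8 ± 10.8 against 34.2 ± 12.7 RPM and Mir6367 at 0.891 ± 0.753 against 0.850 ± 0.370 RPM, about the level of 3 reads.

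**Figure D5:**
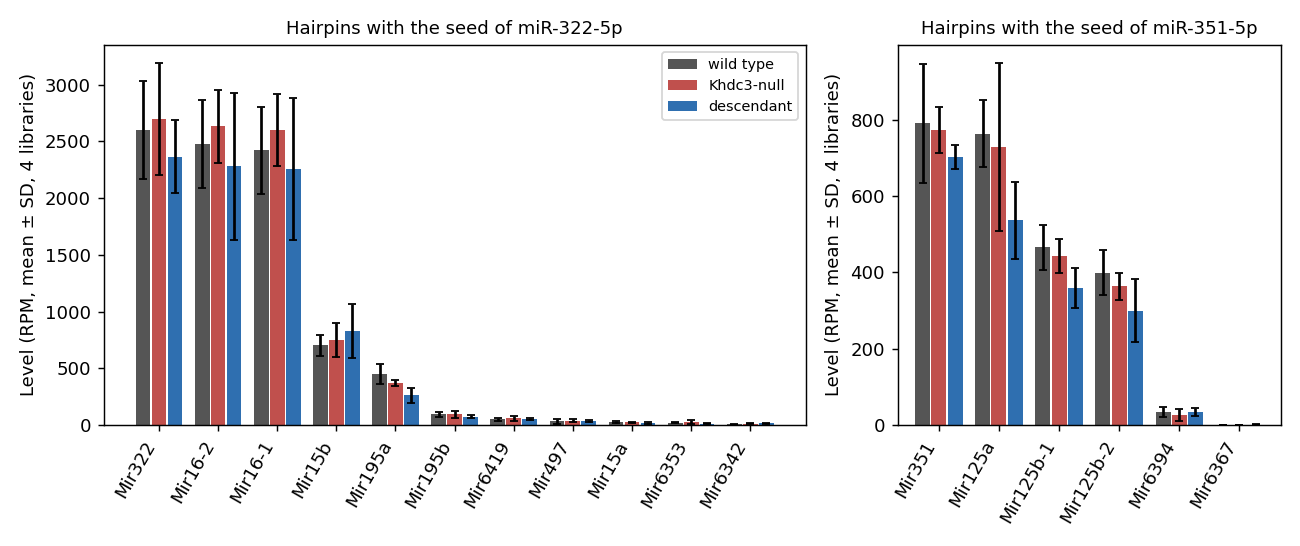
Level of each hairpin that carries the seed of miR-322-5p (left) or miR-351-5p (right) in RPM, as mean ± SD of 4 libraries per group. Mir322, Mir16-2 and Mir16-1 had the highest bars on the left, between 2258 and 2699 RPM, and Mir351 and Mir125a on the right, between 536 and 790.3 RPM.

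On the X chromosome, 8 other measured hairpins lie within 1 Mb of Mir322, and together they stood between 78.1 and 161 RPM per library, far below the cluster. Of these, 6 form the miR-106a/363 cluster, a relative of the growth-promoting miR-17/92 cluster. Its members averaged 5.45 RPM for Mir106a, 22.0 RPM for Mir18b, 9.33 RPM for Mir20b, 6.53 RPM for Mir19b-2, 26.3 RPM for Mir92-2 and 11.7 RPM for Mir363. Mir717, in the span of the glypican gene Gpc3, averaged 17.7 RPM. None of these 7 passed in any comparison. Mir6384, also in the span of Gpc3, averaged 9.59 ± 3.35 RPM in Khdc3-null oocytes against 1.35 ± 0.349 RPM in wild type, and passed against wild type when Khdc3-null replicate 1 was left out (adjusted p = 0.0473 in limma) but not with it (adjusted p = 0.147). In wild type it stood at 1.59, 1.69, 0.988 and 1.11 RPM, around the filter of 1.61 RPM. It was therefore tested only through the groups in which it was higher, so these p-values are not support for a difference. Of 20 tested hairpins of the X-linked gonadal list, a germ-line set led by Mir741 at 248 RPM, 11 were lower in descendants than in wild type oocytes and none passed. Of 27 tested hairpins of other X-linked clusters, led by Mirlet7f-2 at 1829 RPM, 15 were lower and none passed.

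Hairpins taken as markers of other ovarian cells were read in every group. Their reads do not by themselves show that these cells were present. In wild type, 13 hairpins of tissues absent from the ovary summed to a mean of 637 RPM, against 401 RPM for 4 erythrocyte and 228 RPM for 6 leukocyte markers. The means were higher for 10 granulosa markers, at 3800 RPM, and for 12 stroma and vessel markers, at 13834 RPM. These lists differ in length, so their sums are not like measures. Fewer such cells and less of a miRNA per cell cannot be told apart in these bulk libraries. The summed level of 12 measured stroma and vessel markers, led by Mir10b, lay between 10043 and 11681 RPM in descendants, below every wild type library (12489.7 to 16718 RPM) and every Khdc3-null library (12805 to 15144 RPM). Of these markers, 11 of 12 had a lower mean in descendants than in wild type oocytes, with a median log2 difference of -0.26. Over all features 54.1% were lower, with a median of -0.02. Some of the 12 markers are paired loci of the same miRNA, and all libraries share their scaling, so 11 lower means are not 11 separate observations. For single features, groups did not overlap in 2.75% against wild type and 3.02% against Khdc3-null oocytes. No such share was computed for sums of 12 hairpins. The lists were also chosen with earlier results of these data known, so the separation of the sum is a description and not support for a difference. Abundant hairpins weigh most in the sum, and Mir10b averaged 2849 ± 387 RPM in descendants against 4220 ± 1171 RPM in wild type oocytes. The sum moved with the cluster's lower means, and its part in them was not tested. The summed level of 10 measured granulosa markers outside the cluster, led by Mir31, overlapped between the groups, at 3493 to 4003 RPM in wild type, 3226 to 3698 in Khdc3-null and 3218 to 4714 RPM in descendants. Of the 9 tested, 5 were higher and 4 lower in descendants than in wild type oocytes. The 4 erythrocyte markers, led by Mir3107, summed to 385 to 420.3 RPM in wild type, 417 to 816 in Khdc3-null and 402 to 647 RPM in descendants. Mir3107 alone averaged 305, 384 and 399 RPM in the same order, so on average most of each sum came from that hairpin. The 6 leukocyte markers, led by Mir146b, summed to 215 to 239.7, 236 to 382 and 171 to 251 RPM in the same order, and 13 hairpins of tissues absent from the ovary, led by Mir124a-2, to 596 to 686, 583 to 1886 and 567 to 783 RPM. The value of 1886 RPM belonged to Khdc3-null replicate 1. No member of these lists passed in any comparison, and none was at 0 in all libraries.

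The hairpins whose levels followed Mir322 most closely over the 12 libraries were sought among 219 other hairpins of at least 100 RPM. They were Mir100 with a Pearson r of 0.76, Mir10a with 0.70, Mir541 with 0.60, Mir103-2 with 0.54 and Mir99a with 0.54, against a median of 0.07 over the 219. Mir503, the nearest neighbour of Mir322, had an r of 0.68 with it, and 2 of the 219 hairpins had a higher value. Mir450b had one of -0.36, and 211 had a higher value. Mir100 and Mir99a are also on the stroma and vessel list. These correlations are descriptions over libraries that share their scaling.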

How the data were processed

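Small RNA libraries of 12 oocyte samples were compared in 3 groups of 4. Alignment used Bowtie2 and mm10, per the submitters' processing notes. Its version and the treatment of reads with several loci are not given in the sources used here. Per the labels, RNA was isolated with the PicoPure kit and libraries were made with the NEXTFLEX small RNA kit. The authors deposited RPM with 1 added to every value. Here 1 was subtracted, after which 100% of values were whole reads within 0.01 reads. Intervals from counts cover counting error only, since reads carry no molecular identifiers. A count of 0 allows up to 3 reads, or 0.393 to 1.03 RPM.

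Features with at least 1.61 RPM (10 reads in a library of median depth) in 4 or more libraries were tested, 1889 of 2030, including all 7 members. The test was limma 3.58.1 in R 4.3.3 with a variance trend, on log2(RPM + 1) of all 12 libraries, adjusted by Benjamini-Hochberg over the 1889 features at 0.05, and was first tested on simulated data. Log2 differences understate changes of scarce features. Ratios within the cluster were compared with exact permutation tests in scipy 1.17.1. The labels give no batch. Settings tried were the added constant, the filter, the scaling, limma-voom, the groups in the fit and leaving out each library. Other models for read counts were planned for a deposit of raw counts and were not run, as the deposited values are RPM. The limma-voom settings used reads recovered from these values. Members and lists were chosen with earlier results of these data known. The text names all members, the listed seed relatives, the hairpins within 1 Mb of Mir322, the leading member of each other list and the 5 hairpins most like Mir322. Mir122a and the hairpins that a search for the seeds added (Mir6353, Mir6419, Mir6367 and Mir6394) fall outside this rule and were named after their values were seen. Sequences and positions are from RefSeq on GRCm38.p6, in which all 7 members matched.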

Additional observations from a re-analysis of the deposited data

Results flagged for a closer look

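In 3 of 42 sets of 4 libraries examined, a single library lay apart from the other 3 by more than Dixon's criterion allows, where chance alone gives about 1 in 20. Mir450-2 stood at 77.9 RPM in wild type replicate 2, above 54.4 to 58.3 RPM in the other wild type libraries. It stood at 59.97 RPM in Khdc3-null replicate 1, below 70.6 to 72.3 RPM in the other Khdc3-null libraries. Mir542 stood at 91.5 RPM in descendant replicate 2, below 134 to 136 RPM in the other descendant libraries.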

How the results depend on the processing

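Over 20 alternative settings per comparison, no member passed the threshold in any, with a lowest adjusted p of 0.544 in limma, and 403 of 420 member differences kept their direction. Some of these could not have turned. A log2 difference cannot change with the filter or the groups in the fit. Nor can it change when a library of the group not compared is left out. All 7 members stayed lower in descendants than in wild type and than in Khdc3-null oocytes in every setting run. Between Khdc3-null and wild type oocytes, 17 differences changed sign, to at most 0.15 in size (Mir542 without Khdc3-null replicate 1), and the cause was not tested. They were 0.0547 for Mir503, 0.0386 for Mir351 and 0.00327 for Mir542 under median-of-ratios scaling, 0.0246 for Mir503 and 0.00830 for Mir351 with miRNA reads as denominator, and 0.0237 for Mir351 and 0.10 for Mir542 with quality weights in limma-voom. Leaving out 1 library gave -0.0504 to 0.14 for Mir322, -0.12 to 0.13 for Mir503, -0.0923 to 0.11 for Mir351 and -0.15 to 0.15 for Mir542. The number of small RNAs called stayed at 0 in each comparison, except that leaving out 1 library gave 0 to 1 for Khdc3-null against wild type. The 1 was Mir6384 without Khdc3-null replicate 1, a hairpin around the filter level in wild type oocytes. At an unadjusted p under 0.05 the number called ran from 63 to 174, 53 to 111 and 101 to 159 in the order of the report. Differences of descendants that moved by over 1.5 times without a single library are given with the comparisons, and none passed the adjusted threshold. Between Khdc3-null and wild type oocytes, Mir450-2 ranged from 0.11 to 0.28, Mir450-1 from 0.18 to 0.35 and Mir450b from 0.07 to 0.39. The summed levels kept their values within the spread in the 6 settings run for each group. The ratios to Mir322 kept their direction in 36 runs, in which only the added constant was changed. That change moves these ratios little, so the runs could hardly turn a direction, and no library was left out for the ratios. No paired analysis was possible because the labels number no replicates across groups. The 2 planned tests for tables of counts were not run, since the deposited table holds RPM. Only limma-voom was run on reads recovered from it.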
